A study of Oryzias latipes with 3 samples.

Results

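The regions described here are places in the genome of medaka embryos where acetylation of lysine 27 of histone H3 (H3K27ac) reached farther than trimethylation of lysine 4 (H3K4me3) on both sides. They were chosen from the called edges of ChIP-seq peaks. An H3K27ac peak and an H3K4me3 peak had to overlap each other by at least 1 bp and no other peak of the opposite mark, and the H3K27ac peak had to begin before and end after the H3K4me3 peak. The rule found 1567 regions among 10786 such one-to-one pairs, or 14.5% (Wilson 95% interval 13.9 to 15.2). They made up 6.52% of all 24027 H3K27ac peaks and 12.2% of all 12884 H3K4me3 peaks.

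H3K4me3 is laid down by SET1 and MLL methyltransferase complexes around active transcription start sites, with its highest level on the nucleosomes next to the start. H3K27ac is laid down by the acetyltransferases p300 and CBP at active promoters and also at active enhancers, which as a rule carry little H3K4me3. A region in which acetylation extends past the promoter mark therefore contains, as called, flanks with H3K27ac alone.

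The material was whole Oryzias latipes embryos at stage 24, raised at 26 °C, with no treatment named, and 600 embryos were pooled for the chromatin of each sample. There were 3 samples, 2 for H3K27ac and 1 for H3K4me3; 1 list of each mark was used, and the other H3K27ac sample was not analysed here. Whole embryos mix all cell types, so the marks of a pair may sit in different cells, and a wide peak can join signal from different tissues. A single list per mark allows neither a replicate check nor a test, and read depth is unknown. Intervals cover counting error only: Wilson intervals for shares and order-statistic intervals for medians, both at 95%. Start, end and score all come from the same peak calls as the rule, so widths, overhangs and scores describe the regions and support nothing about them.

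The overhang was short in most regions and long in a few. H3K27ac extended past the nearer edge of H3K4me3 by a median of 55.0 bp (51.0 to 59.0), with an interquartile range of 19.0 to 130 bp, and past the farther edge by 228 bp (217 to 250). Summed over both sides the median overhang was 306 bp (282 to 333), with 25% of regions at 766 bp or more and the longest at 5420 bp. Only 22.1% of regions (20.1 to 24.2), or 346, reached at least 150 bp, about the length of DNA on a nucleosome, past each edge. At least 500 bp past each edge were reached in 93 regions and at least 1000 bp in 25. Past at least 1 edge, 473 regions, or 30.2%, reached 500 bp or more and 229 reached 1000 bp or more. Fragments of 200 to 300 bp were sequenced, per the labels' protocols. Only 256 regions, or 16.3%, passed each edge by at least 200 bp. In most regions the shorter overhang was therefore below the length of a fragment.

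**Figure D1:**
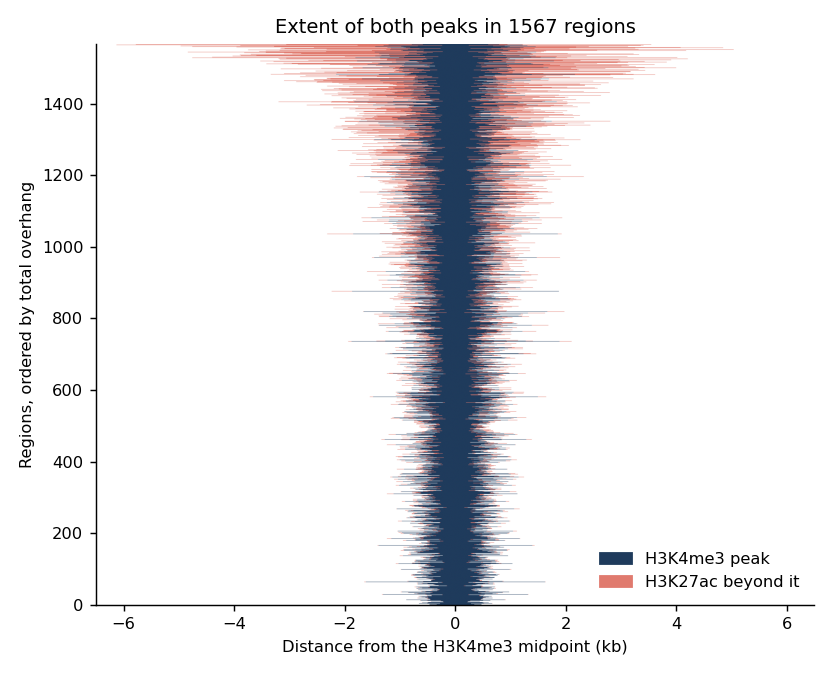
Each horizontal row is 1 of the 1567 regions, ordered from bottom to top by total overhang, and the horizontal axis is the distance from the H3K4me3 midpoint in kb. Dark blue marks the H3K4me3 peak and light red the H3K27ac peak beyond it; the red flanks are thin in most rows and widen toward the top, where the longest total overhang is 5420 bp.

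The flanks were unequal. The longer overhang was at least 2 times the shorter in 1120 regions, or 71.5% (69.2 to 73.7), and at least 5 times in 651, or 41.5%. Neither direction along the chromosome was favoured, as the longer flank lay at the lower coordinate in 763 regions, or 48.7% (46.2 to 51.2), and 4 regions had equal flanks. The median was 117 bp on the lower side and 121 bp on the higher side. The midpoints of the marks still lay close together, a median of 73.5 bp apart (66.5 to 81.5), compared with 55.3 bp (53.0 to 58.0) where H3K4me3 passed both edges of H3K27ac and 138 bp (134 to 141) in the pairs offset to opposite sides. The direction of transcription was not available, so flanks were not ordered as upstream or downstream.

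Pairs just inside the rule had higher medians of width and score than pairs just outside, but the score intervals overlapped. The interval of H3K27ac width also overlapped that of the pairs with an edge in common. Of the 1567 regions, 231 passed the nearer edge by 10 bp or less. These had a median H3K27ac width of 1214 bp (1141 to 1329), a median H3K4me3 width of 1042 bp (1004 to 1163) and a median H3K4me3 score of 1169 (893 to 1454). The 28 pairs just outside with an edge in common and no shortfall on the other side had medians of 917 bp (829 to 1206), 835 bp (688 to 997) and 760 (294 to 1432). The 340 pairs that fell 1 to 10 bp short of an edge while passing the other had medians of 1066 bp (984 to 1119), 919 bp (869 to 966) and 741 (657 to 907). Median H3K27ac scores were 592 (507 to 727) in the 231 regions, 457 (241 to 839) in the 28 pairs and 550 (482 to 651) in the 340.

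**Figure D2:**
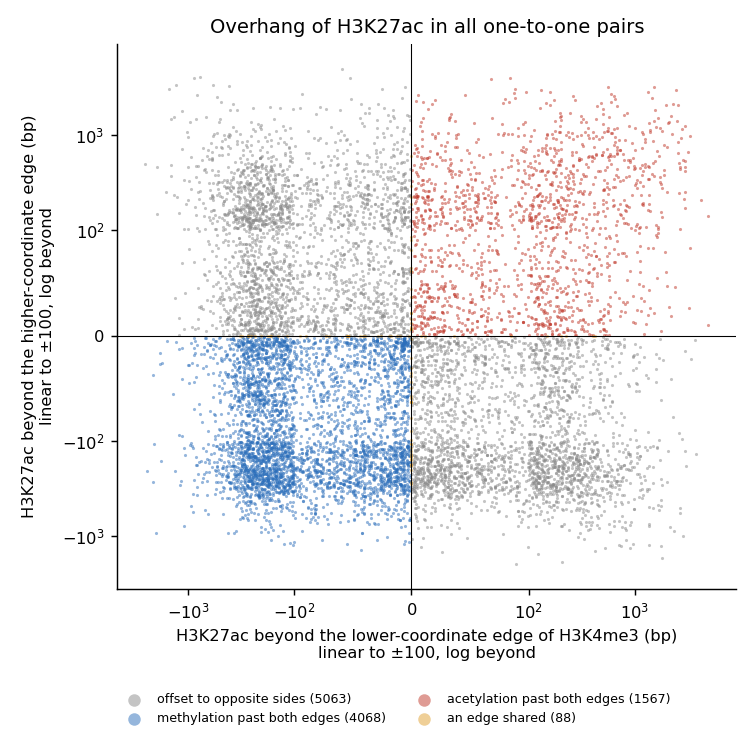
Each point is 1 of the 10786 one-to-one pairs, with the bp of H3K27ac beyond the lower-coordinate H3K4me3 edge on the horizontal axis and beyond the higher-coordinate edge on the vertical axis, both linear to 100 bp and logarithmic beyond. The 1567 regions fill the upper right quadrant. The points of other pairs carry on from it into the neighbouring quadrants without a gap at 0, where 88 pairs share an edge.

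The regions had wider H3K27ac peaks and slightly narrower H3K4me3 peaks than the other pairs. Median H3K27ac width was 1539 bp (1485 to 1597), against 1048 bp (1037 to 1059) in the other one-to-one pairs, and 76.3% were wider than the median of all one-to-one pairs. Median H3K4me3 width was 1129 bp (1086 to 1160), against 1210 bp (1200 to 1220), and 55.8% were narrower than the median of all pairs. The rule compares these widths, so a difference of this direction is built in. By quintile of H3K4me3 width, the share of pairs in the set was 22.6% in the narrowest, 10.7% in the third and 14.7% in the widest. Pairs with the widest quintile of H3K27ac peaks, from 1604 bp upwards, gave 739 of the regions, or 47.2%. H3K4me3 covered a median of 76.8% of the acetylated peak, and in 254 regions, or 16.2%, the H3K27ac peak was at least 2 times as wide as the H3K4me3 peak.

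The regions were also frequent among the widest acetylated peaks of the whole list, against 6.52% of all H3K27ac peaks. The rule takes H3K27ac peaks wider than their H3K4me3 partner, so this is in part built in. The 241 widest H3K27ac peaks, about 1% of the list, measured 4174 bp or more. Of these, 70 belonged to the regions, or 29.0% (23.7 to 35.1), and 142, or 58.9% (52.6 to 64.9), overlapped no H3K4me3 at all. Another 27, or 11.2% (7.81 to 15.8), were in other one-to-one pairs, which gave 9219 of all 24027 H3K27ac peaks. In the whole list 11089 of the 24027 peaks overlapped H3K4me3, so peaks without it were the larger part there too. The overhang of the regions together amounted to 0.975 Mb, which is 3.20% of the 30.4 Mb of acetylated sequence.

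The median H3K4me3 score was lower in these regions than in the other pairs, while the median H3K27ac score was not. The rule compares widths, and wider peaks had higher median scores in both lists, so the rule favours this contrast. Within quintiles of H3K27ac width the order of the H3K27ac scores turned, as given below. The score is the authors' own value per peak; its meaning is not stated, and it was used only within its list. The median H3K4me3 score was 815 (709 to 902), against 1395 (1351 to 1427) in the other one-to-one pairs. It was lower on 24 of 24 chromosomes. With the top 50% of each list by score, these medians lay closer together, at 1983 (1891 to 2106) and 2124. That cut removes low H3K4me3 scores from both groups, so closer medians are in part built in. The median H3K27ac score was 572 (531 to 603), against 515 (503 to 533), and was higher on 17 of 24 chromosomes. In the 346 regions at least 150 bp past each edge it was 476 (407 to 559), against 526 in all the remaining pairs. This is the opposite order, but the interval included 526, and the remaining pairs include the regions of shorter overhang. Against the pairs with marks offset to opposite sides, where the H3K27ac median was 587 (563 to 609), the intervals overlapped. Pairs in which H3K4me3 passed both edges had a lower H3K27ac median of 443 (425 to 466) and an H3K4me3 median of 1385 (1328 to 1432).

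Among pairs in the lowest quintile of H3K4me3 score, up to 358, H3K27ac passed both edges in 25.3% (23.5 to 27.2). In the highest quintile the share was 10.8% (9.60 to 12.2). With the top 50% of each list by score, quintiles were set anew over the remaining pairs. The pairs of lowest H3K4me3 score are then cut away, so these quintiles are not the same sets. In the new lowest and highest quintiles the shares were 13.9% (12.1 to 16.0) and 11.7% (9.97 to 13.6), and their intervals overlapped. Ranked by H3K27ac score, the share was lowest in the lowest quintile, at 9.46% (8.29 to 10.8), and lay between 14.9% and 17.2% in the other 4. The arrangement was most frequent where H3K27ac ranked high and H3K4me3 low. Of 31 pairs with H3K27ac in the highest quintile and H3K4me3 in the lowest, 20 were in the set, or 64.5% (46.9 to 78.9). With H3K27ac in the fourth quintile and H3K4me3 in the lowest, 48 of 87 were, or 55.2% (44.7 to 65.2). In the opposite corner, with H3K27ac in the lowest quintile and H3K4me3 in the highest, it was 2 of 19, or 10.5% (2.94 to 31.4). Where both marks were in their highest quintile, it was 158 of 1184, or 13.3% (11.5 to 15.4). Wider peaks of these pairs had higher median scores within both lists, so rank in score and rank in width were not separate measures.

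**Figure D3:**
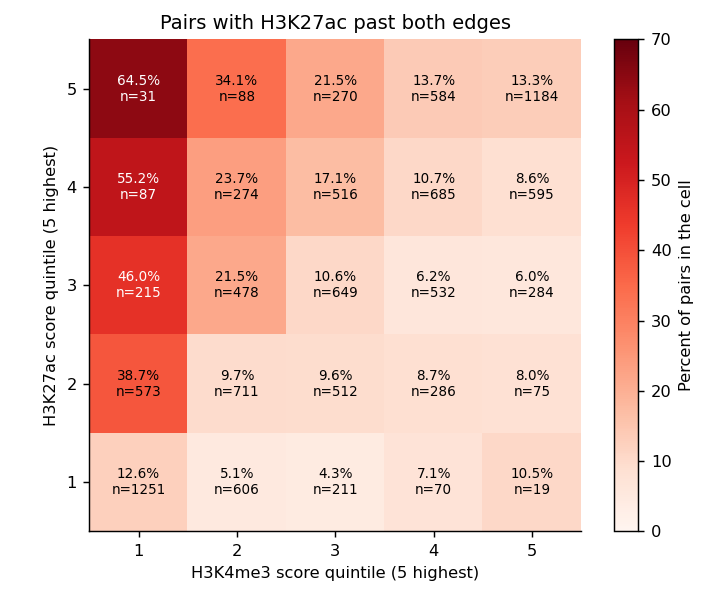
Each cell gives the percent of one-to-one pairs in which H3K27ac passes both H3K4me3 edges, with the number of pairs in the cell, by quintiles of H3K4me3 score (horizontal axis) and H3K27ac score (vertical axis). The share is highest in the upper left, at 64.5% of 31 pairs, and is 13.3% of 1184 pairs where both scores are highest.

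Scores were also compared within quintiles of width, which still span a range of widths, such as 1604 to 7351 bp in the widest H3K27ac quintile. Within each quintile of H3K4me3 width the regions had the lower median H3K4me3 score. In the narrowest quintile the medians were 145 (126 to 171) in 489 regions and 354 (331 to 388) in 1670 other pairs, and in the widest 1802 (1650 to 1986) and 2055 (1986 to 2131). For H3K27ac the order turned within quintiles of width. In the widest quintile of H3K27ac peaks the median H3K27ac score was 699 (633 to 773) in the regions and 993 (949 to 1051) in the other pairs. In the fourth quintile the medians were 668 (581 to 735) and 858 (813 to 892), and in the 3 narrower quintiles the intervals overlapped. In each of the 5 quintiles of H3K27ac width the median of the regions was below that of the other pairs.

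The regions ranged from H3K4me3 of low score inside an H3K27ac peak of low score to H3K4me3 peaks of high score with thin acetylated margins. In 546 of them, or 34.8%, the H3K4me3 score was in the lowest quintile of all pairs. There the H3K4me3 peak had a median width of 780 bp (745 to 814) inside an H3K27ac peak of 1255 bp (1214 to 1336), and covered 64.7% of it. The median overhang past the nearer edge was 78.5 bp (69.0 to 92.0) and the median total 421 bp (352 to 490). The median H3K27ac score was 262 (245 to 296), compared with 128 (122 to 134) in the 1611 other pairs of the same H3K4me3 quintile. At the other end were 234 regions in the highest quintile of H3K4me3 score, with an H3K4me3 width of 1574 bp (1481 to 1640) and an H3K27ac width of 1854 bp (1798 to 1983). Their nearer overhang was 38.0 bp (29.0 to 48.0), their total 221 bp (206 to 267), and H3K4me3 covered 86.7% of the acetylated peak. Scores pile up at 3100 in both lists. An H3K4me3 score of 3100 or above was found in 123 of the regions, or 7.85% (6.62 to 9.29). Among the other one-to-one pairs it was found in 925, or 10.03% (9.44 to 10.66), a slightly higher share.

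Long overhangs went with wide acetylation, which is built in because the overhang is part of the H3K27ac width. The median H3K27ac score was lower at the longest overhangs than at the shortest, but the intervals overlapped slightly. In the 466 regions that passed the nearer edge by 1 to 24 bp, the median H3K27ac width was 1265 bp and the median score 618 (523 to 720). In the 93 that passed it by 500 bp or more, the width was 3501 bp (3280 to 4052) and the H3K27ac score 414 (350 to 526). The median H3K4me3 score was 1167 (902 to 1365) in the former and 304 (176 to 483) in the latter. H3K4me3 width differed less, with medians of 1079 bp and 1226 bp.

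The region with the longest flanks on both sides lay at chromosome 1, 32012541 to 32019145. Its H3K27ac peak of 6605 bp passed an H3K4me3 peak of 1185 bp by 2472 bp on the lower side and 2948 bp on the higher. Both scores were low, 166 for H3K27ac and 186 for H3K4me3. Chromosome 11 held 2 of the 10 regions with the largest nearer overhang, at 10495802 to 10501967 and 10536800 to 10543193. Their nearer overhangs were 1568 and 2132 bp, and their H3K27ac scores were 130 and 65.3. Chromosome 8 held another 2, at 8598470 to 8605710 and 9144918 to 9151315. There the H3K4me3 peaks were wide and above the median score of all one-to-one pairs, with scores of 1558 and 3139 and widths of 2590 and 2341 bp.

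Another 2 of the 10 had a narrow H3K4me3 peak of low score inside acetylation above the median score. At chromosome 22, 8240097 to 8243918, an H3K27ac peak of 3822 bp with a score of 1587 enclosed an H3K4me3 peak of 626 bp with a score of 74.8. At chromosome 21, 23691744 to 23696912, an H3K27ac peak of 5169 bp with a score of 778 enclosed an H3K4me3 peak of 472 bp and a score of 51.3, close to the lowest in the list, 50.0. H3K4me3 covered 16.4% of the former peak and 9.13% of the latter. The remaining regions of the 10 lay at chromosome 4, 15693437 to 15699175, chromosome 16, 13358916 to 13364556, and chromosome 24, 23155744 to 23160389, with nearer overhangs of 1583, 1465 and 1410 bp. Of the 10, 6 had an H3K27ac score and 7 an H3K4me3 score below the median of all one-to-one pairs, 525 and 1308.

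The longest single flanks were one-sided. At chromosome 3, 12221151 to 12227861, H3K27ac ran 4982 bp past the lower edge of H3K4me3 and 141 bp past the higher. At chromosome 6, 18163171 to 18170521, the flanks were 4914 and 10 bp around an H3K4me3 peak of 2427 bp with a score of 3100. The flanks at chromosome 7, 12908422 to 12914278, were 4294 and 207 bp. Those at chromosome 13, 11624544 to 11630283, and chromosome 17, 24081744 to 24088023, pointed to the higher coordinate, with 4016 and 3847 bp, against 84 and 68 bp on the lower side. The acetylated peaks of these 5 regions scored between 176 and 345, all below the median of the regions.

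In the 5 regions of highest H3K27ac score below the ceiling, single flanks measured between 1 and 555 bp. The highest H3K27ac score below 3100, 3078, was at chromosome 13, 3864309 to 3865650. There flanks of 480 and 67 bp surrounded an H3K4me3 peak with a score of 122. The next was at chromosome 1, 31797164 to 31798706, with a score of 3065 and flanks of 232 and 275 bp. After it, the region at chromosome 11, 21019563 to 21022015, scored 2980 with flanks of 201 and 555 bp. At chromosome 4, 2721011 to 2723345, flanks of 131 and 44 bp surrounded an H3K4me3 peak with a score of 3100. Next in rank, the region at chromosome 11, 17649388 to 17650842, belonged to the set by 1 bp on its higher side.

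The lowest H3K4me3 scores in the set were between 50.1 and 50.7. In the lowest, at chromosome 22, 23887103 to 23888522, an H3K4me3 peak of 485 bp lay 138 kb from any other H3K4me3 peak. The second, at chromosome 19, 15453211 to 15454743, had flanks of 428 and 621 bp around an H3K4me3 peak of 484 bp. The others lay at chromosome 15, 27755811 to 27756383, chromosome 8, 24365184 to 24368786, and chromosome 7, 6960575 to 6961713. Such peaks stand at the smallest score listed, so whether H3K4me3 would be called there again could not be examined with 1 list.

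Acetylated peaks without H3K4me3, which include candidate enhancers, were closer to these regions than to other pairs. The rule did not place these peaks. However, the distance runs from the H3K27ac edge, which the rule used, and the same H3K4me3 list decides which peaks lack H3K4me3. Such an H3K27ac-only peak lay within 10 kb of the H3K27ac edge in 608 of 1567 regions, or 38.8% (36.4 to 41.2), against 28.8% (27.9 to 29.8) of the other pairs and 30.3% of all one-to-one pairs. The share was higher in the regions on 22 of 24 chromosomes, and lower on chromosomes 14 and 19. The median distance was 15.1 kb (14.0 to 16.3), against 20.5 kb (19.9 to 21.2). Pairs offset to opposite sides had 30.4% (29.2 to 31.7) within 10 kb, and pairs with H3K4me3 past both edges 26.9% (25.6 to 28.3). Because the H3K27ac peaks of the regions are wider, their edges reach farther; measured between midpoints from H3K4me3, which was chosen with the values already in view, the shares were 33.2% (30.9 to 35.6) and 25.5% (24.6 to 26.4).

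Width and score of the peaks moved with this share. Within quintiles of H3K27ac width the difference was smaller. In the widest quintile 46.7% of the regions (43.1 to 50.3) and 40.1% of the other pairs (37.6 to 42.7) had an H3K27ac-only peak within 10 kb. In the fourth quintile the shares were 36.7% (31.7 to 42.0) and 29.5% (27.4 to 31.6). In the 3 narrower quintiles the intervals of regions and other pairs overlapped for the second, at 24.8% and 27.1%, and the third, at 28.3% and 26.8%, and for the narrowest, at 33.7% (25.3 to 43.2) and 24.1% (22.3 to 26.0). Within quintiles of H3K4me3 score the regions had the higher share in each, 42.1% against 30.8% in the lowest and 33.8% against 23.9% in the highest. The intervals overlapped in the second, at 38.6% (33.2 to 44.2) and 32.8% (30.7 to 34.9). By H3K27ac score the regions also had the higher share in each quintile, 51.0% (44.2 to 57.8) against 33.3% (31.2 to 35.4) in the lowest. In the highest the shares were 25.7% (21.4 to 30.6) and 21.7% (19.9 to 23.7), with overlapping intervals. The part of peak width in the closeness of neighbours was not tested further.

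**Figure D4:**
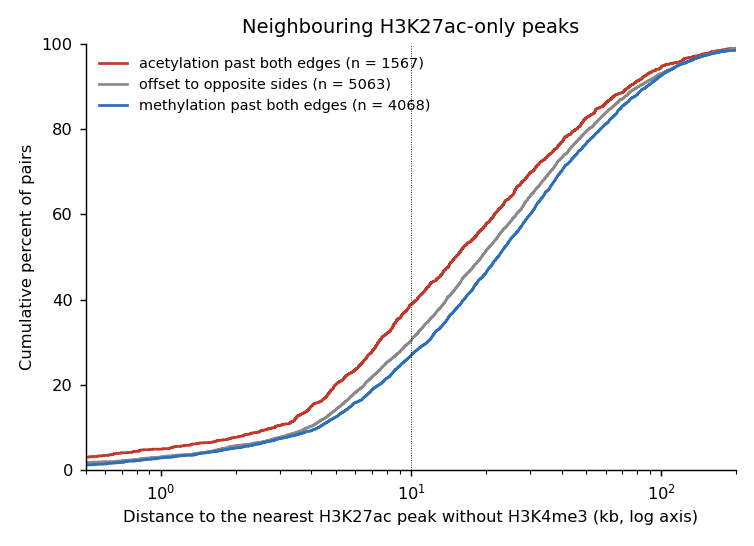
The lines give the cumulative percent of pairs (vertical axis) with an H3K27ac-only peak within the distance on the horizontal axis, in kb on a log scale, for the 1567 regions (red) and for pairs offset to opposite sides (grey) or with H3K4me3 past both edges (blue). At 10 kb, the dotted line, the values are 38.8%, 30.4% and 26.9%.

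The share with an H3K27ac-only neighbour was higher at longer overhangs. It was 32.4% (28.3 to 36.8) in the 466 regions that passed the nearer edge by 1 to 24 bp, 44.4% (38.3 to 50.7) in the 243 at 100 to 199 bp, and 54.8% (44.7 to 64.6) in the 93 at 500 bp or more. Median H3K27ac width was also higher at longer overhangs, 1265 bp at 1 to 24 bp and 3501 bp at 500 bp or more. These distances run from the H3K27ac edge, which lies farther out in wider peaks. Between midpoints, the share was computed only by overhang past the farther edge, another grouping than the nearer edge used above. Within 10 kb it was 43.6% (39.2 to 48.1) in the 473 regions at 500 bp or more past the farther edge. It was 28.7% (26.1 to 31.5) in the 1094 regions below that. The share by overhang was not tested at equal width. The longer flank did not point to the neighbour. Among 519 regions with unequal flanks and an H3K27ac-only midpoint within 10 kb of the H3K4me3 midpoint, the longer flank was on the neighbour's side in 249, or 48.0% (43.7 to 52.3). In the 206 of them whose longer flank was at least 500 bp, it was so in 93, or 45.1% (38.5 to 52.0). A flank that runs toward a neighbour can take it into the same peak, and the neighbour is then not counted.

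Other H3K4me3 peaks were somewhat farther away. Another H3K4me3 peak lay within 10 kb in 631 regions, or 40.3% (37.9 to 42.7), against 46.9% (45.9 to 47.9) of the other pairs and 45.9% of all one-to-one pairs, and the share was lower on 19 of 24 chromosomes. Within 1 kb the shares were 3.83% (2.99 to 4.90) and 6.55% (6.06 to 7.08). The rule leaves out an H3K27ac peak that reaches a second H3K4me3 peak, which removes some wide peaks beside closely spaced H3K4me3 peaks. Of the 89 H3K27ac peaks that overlapped 2 or more H3K4me3 peaks, 8, or 8.99% (4.63 to 16.7), passed the outer edges on both sides. This interval includes the 14.2% among all 11089 H3K27ac peaks with H3K4me3. Counting H3K27ac peaks of any kind, with or without H3K4me3, the values lay closer together. Another H3K27ac peak was within 10 kb of 64.8% (62.4 to 67.1) of the regions, 61.9% (60.9 to 62.9) of the other pairs and 62.3% of all one-to-one pairs. The median distance was 7.13 kb (6.76 to 7.52) against 7.53 kb (7.35 to 7.72). Between midpoints the medians were 8.70 kb (8.28 to 9.14) and 8.77 kb (8.60 to 8.97), with overlapping intervals.

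The regions were spread over all 24 chromosomes. Their share of one-to-one pairs ran from 10.5% on chromosome 2 (7.47 to 14.6), with 30 regions of 285 pairs, to 16.9% on chromosome 18 (13.2 to 21.3), with 56 of 332. On each of the 24 chromosomes the interval included the genome-wide 14.5%. The median overhang past the nearer edge ran from 27.0 bp on chromosome 2 to 93.0 bp on chromosome 7.

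**Figure D5:**
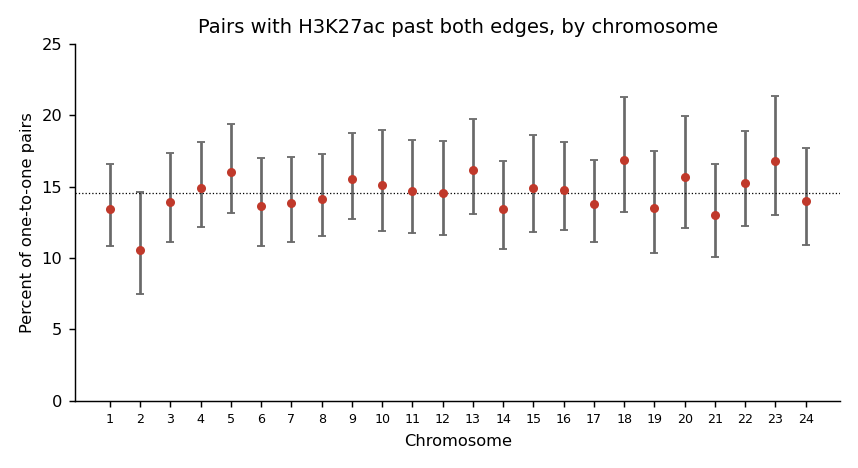
Points give the percent of one-to-one pairs on each of the 24 chromosomes in which H3K27ac passes both H3K4me3 edges, with Wilson 95% intervals as bars and the genome-wide 14.5% as a dotted line. The points lie between 10.5% and 16.9%, and each bar crosses the line.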

How the data were processed

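Whole-embryo ChIP-seq was deposited as 1 peak list per mark, each with chromosome, start, end, name and score. The aligner was Bowtie, per the submitters' processing notes, and the deposited peak names contain MACS, a peak caller. The versions, settings, control library, any pooling of reads and genome build were not given in the sources used here. Scores are those deposited by the authors with each peak, with smallest values of 50.0 for H3K27ac and 50.01 for H3K4me3. What they measure was not stated. Exactly 3100 was shared by 62 H3K27ac and 882 H3K4me3 peaks. Called edges depend on depth and settings, so widths say nothing of which mark is broader.

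Positions count from 1 and keep the lists' own build. On 8 of 24 chromosomes peaks continued past the last gene of assembly ASM223467v1, so its genes were not used, regions are named by position, and no sequence was read. Overlaps of at least 1 bp came from an array routine checked against bedtools 2.31.1, which gave the same 11089 overlapping H3K27ac peaks, and tested on simulated data. Distances run from edge to edge. Quintiles were set by rank over the one-to-one pairs. Computations used SciPy 1.17.1, pandas 2.3.3 and NumPy 2.4.6 under Python 3.11.15, and plots matplotlib 3.10.9.

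The members, comparisons and naming rule were chosen with earlier results of these data known. The regions named are the 10 with the largest nearer overhang, and 5 each with the largest single overhang, the highest H3K27ac score below 3100 and the lowest H3K4me3 score.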

Additional observations from a re-analysis of the deposited data

How the results depend on the processing

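Of the 45 alternative values computed, 24 stayed within the counting interval of the reported value and 21 moved beyond it. Some settings change what is measured, such as another neighbour distance, a least overhang or a cut on score. Movement under them is in part fixed by the setting, so the tally does not measure stability. A share or median has no sign of its own. The order of the H3K27ac score against other pairs turned in 1 setting, that of 150 bp past each edge, within the counting interval. Requiring 50% overlap of the narrower peak, merging peaks up to 500 bp apart, or taking every H3K27ac peak with its outer H3K4me3 edges moved none of the values recomputed under them. With the top 50% of each list by score, 11.4% of pairs were in the set and the nearer overhang was 47.0 bp. The median H3K27ac score was 1040, against 868 in other pairs. The median H3K4me3 score was 1983 (1891 to 2106), against 2124 in other pairs. The difference was smaller than as reported, which a cut on this score in part builds in. With quintiles set anew over the remaining pairs, the share in the lowest H3K4me3 quintile was 13.9%. The nearest H3K27ac peak of the cut list was at 12.5 kb (11.8 to 14.3), against 12.6 kb in other pairs. H3K27ac-only peaks were here those of the cut H3K27ac list without a peak of the cut H3K4me3 list, another set than as reported. Such a peak lay within 10 kb of 24.5%, against 19.8% of other pairs. In the new highest H3K4me3 quintile the share was 11.7%. The shares at the new ends lay closer together than those reported, but the pairs in these quintiles are not the same. Without pairs at a score of 3100 the medians were 523 and 673. Requiring at least 150 bp past each edge left 3.21% of pairs, a nearer overhang of 308 bp, scores of 476 and 448, shares of 7.56% and 1.67% in the lowest and highest H3K4me3 quintiles, a nearest H3K27ac peak at 6.55 kb and 50.0% with an H3K27ac-only peak within 10 kb. The H3K27ac score was then below the 526 of the remaining pairs, opposite to the reported order, but its interval (407 to 559) included 526. The remaining pairs here include the regions of shorter overhang. H3K27ac-only peaks lay within 5 kb of 19.97% and within 20 kb of 57.8% of regions, against 13.4% and 49.2% of other pairs, and by midpoints within 10 kb of 33.2%. The nearest H3K27ac peak was at 8.70 kb between midpoints (8.28 to 9.14), against 8.77 kb in other pairs. No paired analysis was possible because only a single list per mark was used. Read depth is unknown, and no replicate list was used.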

Other observations

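The succession of the regions along the chromosomes was examined. The next one-to-one pair was also in the set for 257 of the 1562 regions that were not the last pair of their chromosome, or 16.5% (Wilson 95% interval 14.7 to 18.4), against 14.5% of all pairs. The set formed 1310 runs, of which 1103 were single regions, 169 held 2 and 32 held 3. The longest runs, picked after their values had been seen, held 6 regions each. At chromosome 8, 24326841 to 24385009, the 6 regions lay within 58.2 kb, with H3K27ac peaks of 1247 to 6134 bp. Their scores were low for both marks, 50.3 to 412 for H3K27ac and 50.6 to 616 for H3K4me3, and the median overhang past the nearer edge was 255 bp. At chromosome 17, 5965594 to 6110594, the 6 regions were spread over 145 kb. Here the scores were higher, 352 to 2000 for H3K27ac and 118 to 3094 for H3K4me3, and the median nearer overhang was 79.5 bp.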
